A study of Mus musculus with 7 samples.

Results

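The genes described here encode lysosomal proteases, membrane proteins of the lysosome and its beta-galactosidase. They were chosen by name, and all 10 (Ctsb, Ctsd, Ctsl, Ctsz, Ctsc, Ctsh, Lgmn, Lamp1, Lamp2 and Glb1) were found among the 55487 genes of the deposited table. RNA came from primary tumours of BALB/c mice labelled WT, grown in the mammary fat pad from 4T1-12b(luc), a luciferase-carrying subline of the BALB/c mammary carcinoma line 4T1. Tumours of about 150 mm3 received 6 injections of 50 µl, spaced every other day, and carry the time label day 12. The groups were TIS sEV (3 libraries), Cont sEV (1 library) and Saline (3 libraries). TIS sEV tumours received small extracellular vesicles of 4T1 cells that the labels call therapy-induced senescent. These donors were kept for 72 h in nocodazole (100 ng/ml), which stops microtubules from forming, and collected after 72 h without it. Cont sEV tumours received vesicles of DMSO-treated 4T1 cells, and Saline tumours received no vesicles. The labels do not state the age of the mice, or whether the replicates are separate animals, so p-values measure only the spread between these libraries, which may be technical. Vesicle donor and tumour came from the same cell line, and the mice kept their immune cells, so the RNA of a whole tumour mixes tumour, immune and stromal cells.

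Lysosomes break down material taken up from outside the cell or delivered by autophagy. Cathepsins B, L, Z, C and H are cysteine proteases, cathepsin D is an aspartic protease, and legumain cuts after asparagine and helps to process other lysosomal proteases. Lamp1 and Lamp2 are heavily glycosylated proteins that line the lysosomal membrane. Glb1 encodes the beta-galactosidase whose activity, stained at a less acidic pH, is the usual marker of senescent cells. Tumour cells and tumour macrophages both use these genes, and a bulk tumour library cannot tell apart fewer cells of a type and less RNA per cell.

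Many lysosomal genes carry an E-box with the letters CACGTG, read by the transcription factor TFEB and its relatives, near the start of transcription. Promoter windows from 250 bases before to 50 bases after the start were taken from RefSeq (build GRCm38.p6), and 8 of the 10 genes had at least 1. CACGTG, which reads the same on both strands, was present for 5 of the 8 (Ctsd, Ctsl, Lgmn, Lamp1 and Glb1), against 8.09% of the 27025 genes with a window. TCACGTG, searched on both strands and overlapping the first motif, was present for 4 of the 8, against 4.29% of genes. The 8-letter TCACGTGA was present only in Ctsd, against 1.12% of genes. For Lgmn, 1 of its 2 windows held the motif. That window (102439043 to 102439342) and the Ctsl window (64370471 to 64370770) lay inside their genes. Both genes are on the minus strand and begin upstream of these windows, at 102439813 and 64370890 in the gene annotation. Ctsz, Ctsc and Lamp2 had no CACGTG in these windows, and Ctsb and Ctsh had no window. A match describes letters in a window, not a bound site.

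Windows are shown for both membrane proteins, which differ in the motif, for cathepsin D, the protease with 2 matches, and for Glb1, the senescence marker. Capitals mark CACGTG, and each window reads 5′ to 3′ on the strand of the gene.
Lamp1, chr8:13158911-13159210, plus strand: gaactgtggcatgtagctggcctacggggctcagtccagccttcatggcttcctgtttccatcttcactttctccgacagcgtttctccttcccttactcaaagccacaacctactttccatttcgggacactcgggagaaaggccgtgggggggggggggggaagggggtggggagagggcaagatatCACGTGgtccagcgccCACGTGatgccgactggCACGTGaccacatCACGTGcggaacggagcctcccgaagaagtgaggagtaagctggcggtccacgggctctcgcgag
Lamp2, chrX:38456411-38456710, minus strand: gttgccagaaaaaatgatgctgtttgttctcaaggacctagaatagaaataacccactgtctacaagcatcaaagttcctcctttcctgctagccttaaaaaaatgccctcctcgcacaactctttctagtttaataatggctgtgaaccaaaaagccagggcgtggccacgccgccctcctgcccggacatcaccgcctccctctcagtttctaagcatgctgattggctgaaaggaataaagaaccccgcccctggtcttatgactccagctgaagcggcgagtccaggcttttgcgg
Ctsd, chr7:142387778-142388077, minus strand: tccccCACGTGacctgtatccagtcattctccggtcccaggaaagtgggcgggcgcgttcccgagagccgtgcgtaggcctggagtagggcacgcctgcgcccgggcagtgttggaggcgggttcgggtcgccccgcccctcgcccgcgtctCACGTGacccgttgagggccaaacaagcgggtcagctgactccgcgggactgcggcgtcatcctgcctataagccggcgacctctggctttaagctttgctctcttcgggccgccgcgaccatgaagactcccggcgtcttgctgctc
Glb1, chr9:114400828-114401127, plus strand: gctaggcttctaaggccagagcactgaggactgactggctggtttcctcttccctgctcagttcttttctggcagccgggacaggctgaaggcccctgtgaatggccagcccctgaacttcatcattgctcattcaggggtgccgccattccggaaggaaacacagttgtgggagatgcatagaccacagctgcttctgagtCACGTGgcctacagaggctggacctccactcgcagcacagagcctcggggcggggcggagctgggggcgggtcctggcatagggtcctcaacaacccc
In Lamp1 the motif stood 4 times, with its first base 61, 45, 28 and 15 bases before the start. In Ctsd it stood 245 and 98 bases before the start, and in Glb1 48 bases before it. Ctsd begins within its window in the gene annotation, at 142388038 on the minus strand. Its match at 98 bases therefore lay inside the annotated gene, and its match at 245 bases lay upstream of it.

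The levels of the 10 genes were given by the authors as TPM, which correct for transcript length and sum to 1000000 in each library. TIS sEV replicate 2 stood apart before any comparison. Its share of TPM on ribosomal RNA loci was 22.9%, where the other 6 libraries had 0.807% to 2.40%. Its share on nuclear protein-coding genes was 28.6%, where the others had 56.8% to 74.7%. TPM were therefore divided by size factors (median of ratios), which were 1.26, 0.373 and 1.01 for TIS sEV replicates 1 to 3, 0.997 for Cont sEV and 1.02, 1.51 and 1.48 for Saline. The result is called scaled TPM below. The median log2 difference of all genes tested, TIS sEV minus Saline, was -0.037 after scaling and -0.62 before it. All 8 epithelial markers of the tumour list, Epcam and Krt8 among them, were above 0 in every library.

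Most of these genes were abundant. The mean TPM over the 7 libraries ranged from 19.3 for Glb1 to 828 for Ctsl, and 7 of the 10 genes lay above at least 94.0% of the 12058 genes tested. Ctsl, a cysteine endopeptidase (chromosome 13, 64359337 to 64370890, minus strand, GRCm38), was the highest of the 10 in 6 of 7 libraries, at 606 ± 495 TPM in TIS sEV tumours, 590 in the Cont sEV tumour and 1128 ± 439 TPM in Saline tumours (SD, n = 3 for TIS sEV and Saline). Ctsd (chromosome 7, 142375911 to 142388038, minus strand) followed, and passed Ctsl only in TIS sEV replicate 2, where the 2 levels were 85.7 and 85.5 TPM. Lamp1, Ctsz, Lgmn and Ctsb changed places between libraries, and their levels overlapped within every group with 3 libraries. Ctsh, an aminopeptidase, ranked 7 and Lamp2 ranked 8 in 7 of 7 libraries. Ctsc, a dipeptidyl peptidase that activates granzymes and neutrophil proteases, and Glb1 were the lowest, with Glb1 last in 6 of 7 libraries.

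The summed level of the 10 genes was 2099, 1222 and 2215 scaled TPM in the TIS sEV libraries, 1984 in the Cont sEV library and 1848, 2418 and 2094 in the Saline libraries. The groups overlapped, and TIS sEV replicate 2 was the lowest. In that library 8 of the 10 genes had their lowest scaled level of all 7 libraries. The coefficient of variation between TIS sEV libraries was 16.5% to 66.1%, against 6.02% to 27.99% between Saline libraries, and it was the larger of the 2 for 9 of 10 genes. Glb1 and Ctsl varied most among TIS sEV libraries. The counts of 8 and 9 of 10 were not set against all genes tested, so they cannot be read as particular to these genes.

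**Figure D1:**
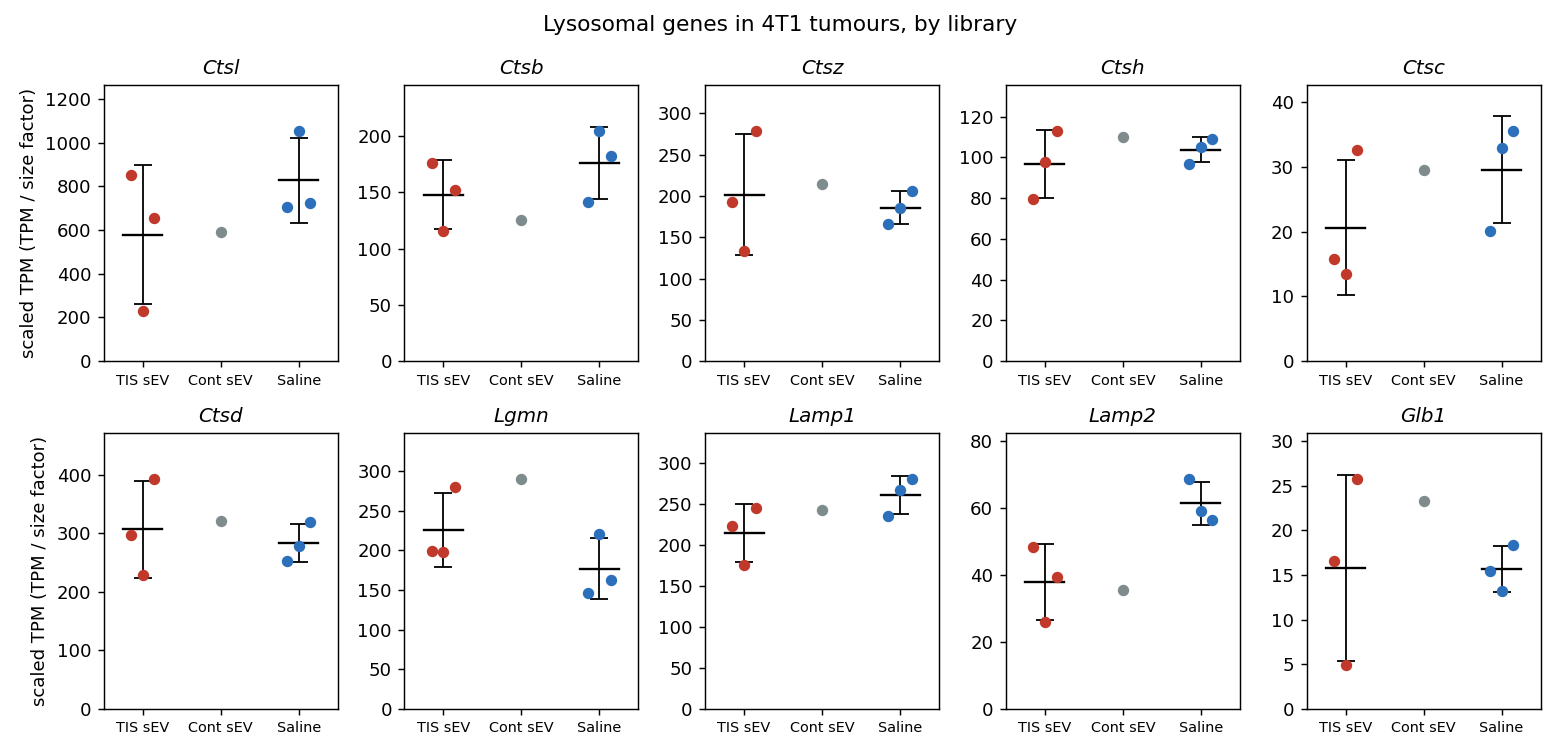
Scaled TPM of the 10 lysosomal genes in each library (vertical axis from 0, linear), with TIS sEV, Cont sEV and Saline from left to right. Points are libraries, and bars are means with SD for the groups of 3. Lamp2 is the panel in which all 3 TIS sEV points (25.9 to 48.3) lie below all 3 Saline points (56.4 to 68.6).

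Of the 10 genes, 0 passed between TIS sEV and Saline tumours in limma, a test fitted across all genes (adjusted p of 0.332 to 0.922). The background was the same, since 0 of 12058 genes passed (0.00%), while 1761 had an unadjusted p under 0.05 (14.6%, and 7.16% with the lower level in TIS sEV). Among the 10 genes, 1 had an unadjusted p under 0.05, Lamp2. In deposited TPM without size factors 0 of the 10 passed as well, against 0.514% of genes. That fit, unlike the main one, used only a spread shared by genes of like level. The fitted differences ran from -0.72 for Lamp2 to 0.35 for Lgmn, with 3 genes above 0 and 7 below and a median of -0.24. Over all genes tested the median was -0.037, and 53.1% lay below 0. Without TIS sEV replicate 2 the median of the 10 genes was -0.10, with 4 above 0. The split depended on the scaling: 0 of the 10 lay above 0 with quantile normalization (median -0.48, against -0.034 over all genes), 1 when scaled to the protein-coding total (median -0.53, against -0.29) and 0 in deposited TPM (median -0.93, against -0.62).

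Lamp2, a membrane protein with a form that admits single proteins for autophagy (chromosome X, 38401357 to 38456454, minus strand), had 60.9, 9.68 and 39.6 TPM in TIS sEV tumours, 35.3 TPM in the Cont sEV tumour and 70.3, 89.4 and 83.5 TPM in Saline tumours. In scaled TPM these were 48.3, 25.9 and 39.2 with TIS sEV, 35.4 with Cont sEV and 68.6, 59.0 and 56.4 with Saline. Every library of a vesicle-treated tumour was below every Saline library. The log2 difference between TIS sEV and Saline was -0.72 (SE 0.25, 95% confidence interval -1.32 to -0.13, limma adjusted p = 0.332). Groups that did not overlap were found for 1 of the 10 genes, against 24.0% of all genes tested, and for 13.5% in this direction. The difference was below 0 under all 16 alternatives tried, at -0.48 (adjusted p = 0.389) without TIS sEV replicate 2 and -0.92 (adjusted p = 0.116) without TIS sEV replicate 1, and it passed under none.

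Lamp1, the other main membrane protein (chromosome 8, 13159161 to 13175338, plus strand), had 223, 176 and 245 scaled TPM in TIS sEV tumours, 242 in the Cont sEV tumour and 235, 267 and 281 in Saline tumours. TIS sEV replicate 3 lay above Saline replicate 1, so the groups overlapped. The log2 difference between TIS sEV and Saline was -0.29 (SE 0.20, adjusted p = 0.471) and -0.16 without TIS sEV replicate 2. Within a library, where scaling has no part, the ratio of Lamp2 to Lamp1 TPM was 0.217, 0.148 and 0.160 with TIS sEV, 0.146 with Cont sEV and 0.291, 0.221 and 0.201 with Saline. The ratio of TIS sEV replicate 1 lay between those of Saline replicates 2 and 3.

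Lgmn, which encodes legumain (chromosome 12, 102394084 to 102439813, minus strand), lay on the other side. It had 251, 73.6 and 282 TPM in TIS sEV tumours, 289 TPM in the Cont sEV tumour and 150, 333 and 241 TPM in Saline tumours. In scaled TPM these were 199, 197 and 279 with TIS sEV, 290.2 with Cont sEV and 147, 220 and 163 with Saline, and Saline replicate 2 lay above 2 of the TIS sEV libraries. The log2 difference between TIS sEV and Saline was 0.35 (SE 0.24, 95% confidence interval -0.22 to 0.93, adjusted p = 0.470), and it turned to -0.40 in deposited TPM and to -0.0030 with quantile normalization. It was 0.19 without TIS sEV replicate 3 and 0.23 without Saline replicate 1.

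The cysteine cathepsins showed no shared direction beyond the replicate spread. Ctsl had 850, 229 and 656 scaled TPM in TIS sEV tumours, 591 in the Cont sEV tumour and 704, 1053 and 723 in Saline tumours. Its log2 difference between TIS sEV and Saline was -0.69 (SE 0.49, adjusted p = 0.484) and -0.12 without TIS sEV replicate 2, where it was lowest. It was -1.07 with TIS sEV replicate 1 left out. Ctsc (chromosome 7, 88278085 to 88310888, plus strand) had 15.8, 13.4 and 32.6 scaled TPM with TIS sEV, 29.6 with Cont sEV and 20.1, 33.0 and 35.6 with Saline, a difference of -0.56 (SE 0.37, adjusted p = 0.455) that was -0.33 with TIS sEV replicate 2 left out and -0.93 with replicate 3 left out. In Ctsc the third TIS sEV library sat with the Saline libraries and the other 2 sat below them.

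Ctsb, a protease with endo- and carboxypeptidase activity (chromosome 14, 63122462 to 63145923, plus strand), had 176, 116 and 152 scaled TPM in TIS sEV tumours, 126 in the Cont sEV tumour and 141, 204 and 182 in Saline tumours, a difference of -0.25 (SE 0.24, adjusted p = 0.581). With 1 library left out the Ctsb difference ran from -0.41 (without Saline replicate 1) to -0.087 (without TIS sEV replicate 2). Ctsh (chromosome 9, 90054152 to 90076089, plus strand) had 79.5, 97.5 and 113 scaled TPM with TIS sEV, 110.2 with Cont sEV and 96.9, 105 and 109 with Saline, and differed by -0.11 (SE 0.19, adjusted p = 0.768), which turned to 0.017 without TIS sEV replicate 1. It had the lowest coefficient of variation of the 10 among Saline libraries (6.02%). Ctsz, a carboxypeptidase (chromosome 2, 174427493 to 174439039, minus strand), had 193, 134 and 279 scaled TPM with TIS sEV, 215 with Cont sEV and 167, 185 and 206 with Saline. Its TIS sEV libraries lay on both sides of the Saline range, and the difference of 0.058 (SE 0.29, adjusted p = 0.922) turned to -0.69 in deposited TPM, -0.23 scaled to the protein-coding total and -0.28 with quantile normalization, and also below 0 without TIS sEV replicate 3 or Saline replicate 1.

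Ctsd, the aspartic protease, behaved likewise, with 298, 230 and 394 scaled TPM in TIS sEV tumours, 321 in the Cont sEV tumour and 253, 278 and 319 in Saline tumours. The difference of 0.086 (SE 0.25, adjusted p = 0.867) turned to -0.67 in deposited TPM, -0.20 scaled to the protein-coding total, -0.29 with quantile normalization and -0.11 without TIS sEV replicate 3.

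Glb1 (chromosome 9, 114401076 to 114474898, plus strand) had 20.9, 1.85 and 26.0 TPM in TIS sEV tumours, 23.2 TPM in the Cont sEV tumour and 15.8, 19.97 and 27.2 TPM in Saline tumours. In scaled TPM these were 16.6, 4.96 and 25.8 with TIS sEV, 23.3 with Cont sEV and 15.4, 13.2 and 18.4 with Saline, so that the TIS sEV libraries held both the highest and the lowest value of the series. The group means were 15.8 ± 10.4 scaled TPM with TIS sEV and 15.7 ± 2.59 with Saline (SD, n = 3 each). The log2 difference was -0.23 (SE 0.52, 95% confidence interval -1.45 to 1.00, adjusted p = 0.830), and it turned to 0.40 (adjusted p = 0.505) without TIS sEV replicate 2. The interval allows a change of either sign, so a difference in the Glb1 transcript was not detectable with these libraries.

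**Figure D2:**
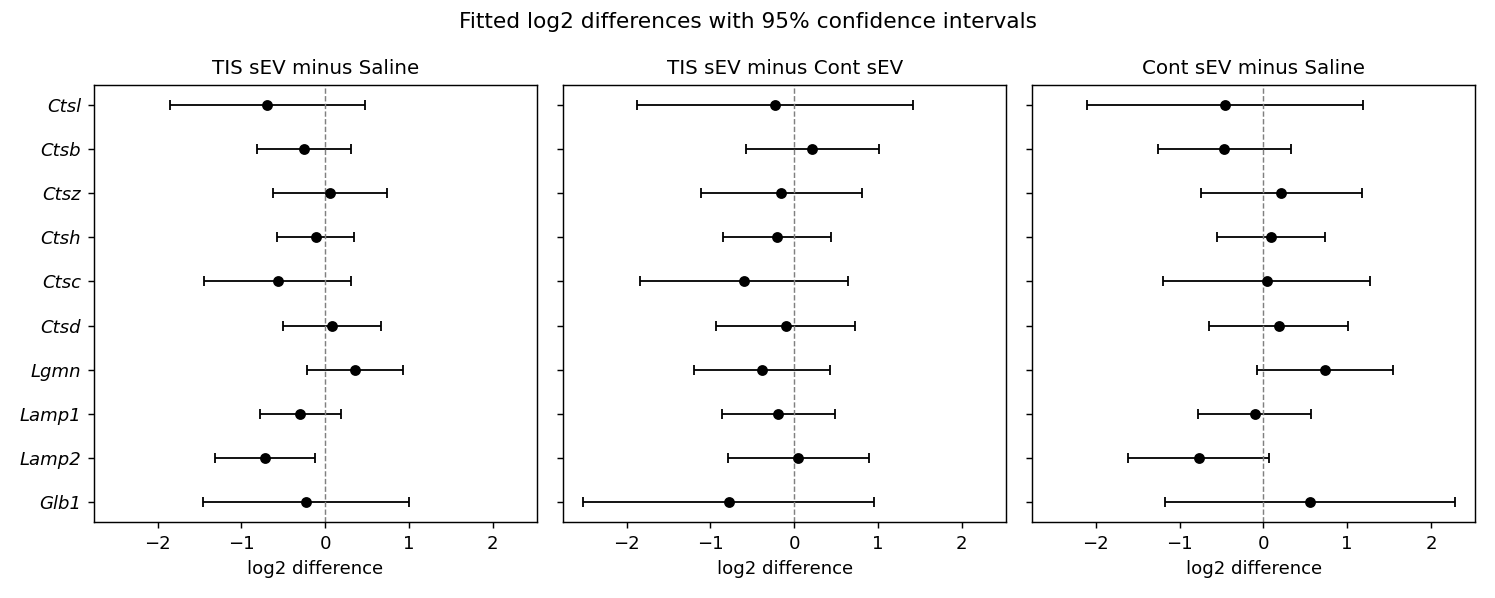
Fitted log2 differences of the 10 genes (points) with 95% confidence intervals (bars) for TIS sEV minus Saline, TIS sEV minus Cont sEV and Cont sEV minus Saline, on log2(scaled TPM + 1). The interval of Lamp2 between TIS sEV and Saline (-1.32 to -0.13) is the only 1 of the 30 that leaves out 0.

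Against the single Cont sEV tumour, treated with vesicles of donors not exposed to nocodazole, 0 of the 10 genes passed in TIS sEV tumours (limma adjusted p of 0.897 to 0.990, with 0 at an unadjusted p under 0.05). In that comparison 1 of 12058 genes passed (0.00829%), the pseudogene Rpl35a-ps3, named after its values were seen, and 623 had an unadjusted p under 0.05. The lone Cont sEV library was assumed to vary like the others. The fitted differences ran from -0.78 (SE 0.73) for Glb1 to 0.21 (SE 0.34) for Ctsb, with 8 of 10 below 0 and a median of -0.20, against -0.041 over all genes. Without TIS sEV replicate 2 the split was 5 above and 5 below 0 with a median of 0.016, and 7 of 10 lay above 0 when scaled to the protein-coding total. With TIS sEV replicate 2 left out, the difference was -0.17 for Glb1 and 0.38 for Ctsb. It was -1.24 for Glb1 with TIS sEV replicate 3 left out, and 0.078 for Ctsb with TIS sEV replicate 1 left out. Lamp2 differed by 0.048 (SE 0.36, 95% confidence interval -0.80 to 0.89) and Lgmn by -0.38 (SE 0.34), and the Lamp2 value turned to -0.15 without TIS sEV replicate 1.

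Between the Cont sEV tumour and Saline tumours, 0 of the 10 genes passed either (adjusted p of 0.411 to 0.980, with 0 at an unadjusted p under 0.05), against 1 of 12058 genes (0.00829%), again Rpl35a-ps3, and 1558 genes at an unadjusted p under 0.05. The extremes were the same genes as for TIS sEV against Saline, a comparison that shares the Saline libraries. Lamp2 differed by -0.77 (SE 0.36, 95% confidence interval -1.62 to 0.073, adjusted p = 0.411) and Lgmn by 0.74 (SE 0.34, 95% confidence interval -0.073 to 1.55, adjusted p = 0.414). With 1 Cont sEV library, these values have no replicate check of their own.

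The make-up of the 10 transcripts does not depend on the scaling of a library. Ctsl took 40.5%, 18.7% and 29.6% of their summed TPM in TIS sEV libraries, 29.8% in the Cont sEV library and 38.1%, 43.5% and 34.5% in Saline libraries. Lgmn took 9.49%, 16.1% and 12.6% with TIS sEV, 14.6% with Cont sEV and 7.94%, 9.10% and 7.77% with Saline. The ratio of Lgmn to Ctsl was 0.234, 0.861 and 0.426 with TIS sEV, 0.491 with Cont sEV and 0.208, 0.209 and 0.225 with Saline. This ratio was close to constant among Saline tumours and higher in all 4 vesicle-treated tumours, narrowly so in TIS sEV replicate 1. Ratios of this kind did not overlap between TIS sEV and Saline for 11 of the 45 pairs of the 10 genes (24.4%), against 22.9% of all pairs among 3557 genes at least as abundant as Glb1. The share for these genes was near that background, and Lgmn, in 5 of the 11 pairs, and Lamp2, in 4, took part most often.

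**Figure D3:**
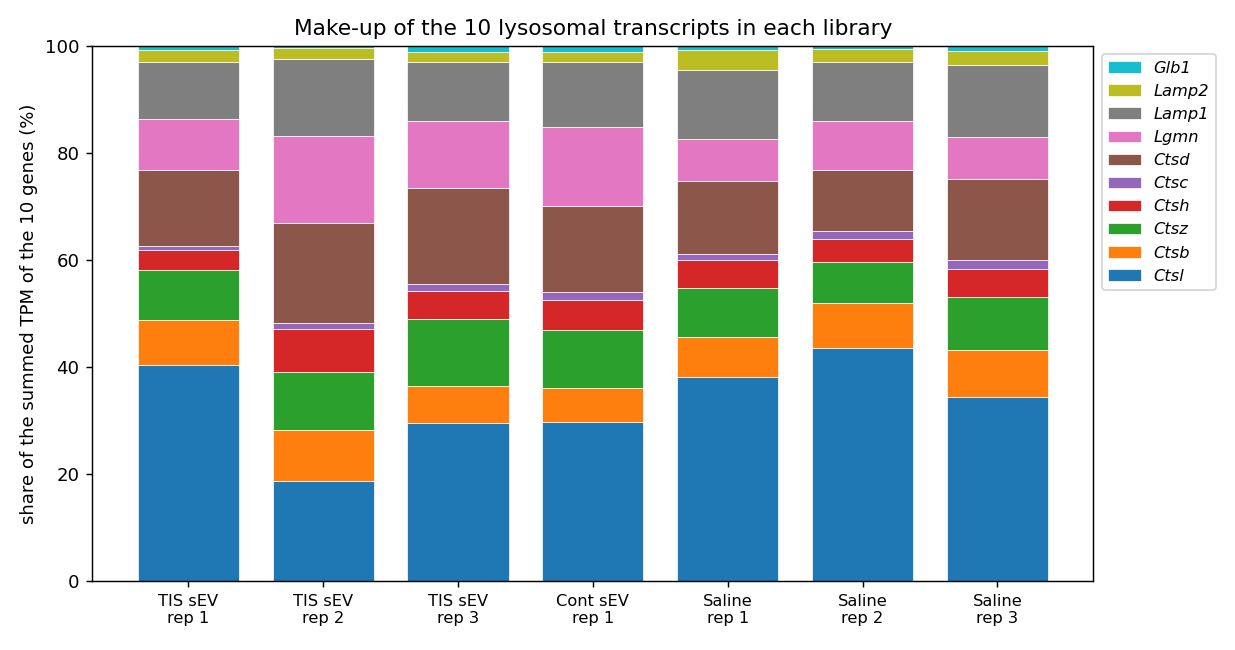
Share of each gene in the summed TPM of the 10 genes (percent, bars stacked to 100), 1 bar per library. The Ctsl share is smallest in TIS sEV replicate 2 (18.7%), and the Lgmn share is larger in the vesicle-treated libraries (9.49% to 16.1%) than in the Saline libraries (7.77% to 9.10%). Shares sum to 100, so they are tied to one another, and the scaled TPM of Lgmn overlapped between TIS sEV and Saline.

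Other parts of the lysosome were read from gene lists, and 0 of their tested members passed between TIS sEV and Saline. Medians are fitted log2 differences, beside -0.037 over all genes tested. Of 17 subunits of the V-type proton pump, which acidifies the lysosome, 12 lay above 0, with a median of 0.35 (0.34 without TIS sEV replicate 2, but 0.081 with quantile normalization). Their summed level was 1386, 1728 and 1777 scaled TPM with TIS sEV, 1769 with Cont sEV and 1261, 1159 and 1300.3 with Saline. The TIS sEV and Saline groups did not overlap, while in deposited TPM they did, and no background share was made for sums. Atp6v0d1, a subunit of the membrane sector, had 44.8, 92.2 and 57.1 scaled TPM with TIS sEV, 39.5 with Cont sEV and 30.3, 29.4 and 39.9 with Saline (log2 difference between TIS sEV and Saline 0.89, SE 0.29, adjusted p = 0.332). Atp6ap2, an accessory subunit, differed by -0.90 (SE 0.40, adjusted p = 0.347).

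The 8 tested protease inhibitors, cystatins and serpins that bind cathepsins or related proteases, all lay above 0, with a median of 0.47. Without TIS sEV replicate 2, 7 did so (median 0.16). Between TIS sEV and the single Cont sEV tumour, 5 of the 8 lay above 0. Serpina3g, a serpin reported to inhibit cathepsins, had 32.8, 39.1 and 36.7 scaled TPM with TIS sEV, 29.4 with Cont sEV and 10.8, 12.0 and 12.6 with Saline. Its difference of 1.54 (SE 0.17, limma adjusted p = 0.211) did not pass. It belongs to a family of closely related copies, so reads may be split between them and its value is uncertain. Stfa3, a stefin listed with its relatives Stfa1 and Stfa2, differed by 0.91 (SE 0.84, adjusted p = 0.571). The same caution on reads split between related copies applies to it.

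Of 5 transcription regulators of lysosomal genes, 4 lay above 0 (median 0.34), and 3 did so without TIS sEV replicate 2. Tfeb, which reads the CACGTG motif, had 6.92, 8.52 and 6.999 scaled TPM with TIS sEV, 5.97 with Cont sEV and 4.01, 3.62 and 3.63 with Saline (log2 difference between TIS sEV and Saline 0.83, SE 0.18, adjusted p = 0.332). Its relative Tfec had 8.19, 18.6 and 8.55 with TIS sEV, 3.31 with Cont sEV and 3.64, 4.35 and 3.68 with Saline (1.297, SE 0.32, adjusted p = 0.332). For both genes the TIS sEV and Saline libraries did not overlap. Groups did not overlap in this direction for 10.4% of all genes. Of the other genes named from the lysosomal lists, Atp6v0d1 and Serpina3g also did not overlap and were higher with TIS sEV. Asah1, Laptm4a, Atp6ap2, Igf2r and M6pr did not overlap and were lower, against 13.5% of all genes in that direction. The named genes were picked as the largest differences of each list.

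Other lysosomal enzymes were mixed. Of 29 glycosidases, sulfatases, lipases and related hydrolases, 6 lay above 0 (median -0.22), and 15 did so without TIS sEV replicate 2 (median 0.091). Asah1, the acid ceramidase, had 46.4, 13.6 and 28.7 scaled TPM with TIS sEV, 35.1 with Cont sEV and 52.0, 57.2 and 64.0 with Saline (log2 difference between TIS sEV and Saline -1.09, SE 0.41, adjusted p = 0.332), and Arsa, a sulfatase, differed by -0.88 (SE 0.56, adjusted p = 0.447). Of 11 other lysosomal proteases, 7 lay above 0 (median 0.19), and 8 without TIS sEV replicate 2. Among them Ctsk, a collagen-degrading cathepsin, differed by 0.98 (SE 0.61, adjusted p = 0.437) and Tpp1, a tripeptidyl peptidase, by -0.67 (SE 0.31, adjusted p = 0.352).

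Of 17 tested membrane and cofactor genes, 7 lay above 0 (median -0.074), and 12 did so without TIS sEV replicate 2 (median 0.14). Cd68, a lysosomal membrane protein of macrophages, had 48.7, 97.8 and 55.2 scaled TPM with TIS sEV, 31.5 with Cont sEV and 27.1, 52.5 and 26.4 with Saline (log2 difference between TIS sEV and Saline 0.91, SE 0.36, adjusted p = 0.335), and Laptm4a, a membrane protein of late endosomes, differed by -0.65 (SE 0.30, adjusted p = 0.357). Of 5 genes that sort enzymes to the lysosome by mannose 6-phosphate, 1 lay above 0 (median -0.47), and 2 did so without TIS sEV replicate 2 (median -0.16). Their receptors Igf2r and M6pr differed by -1.51 (SE 0.68, adjusted p = 0.349) and -0.47 (SE 0.28, adjusted p = 0.425).

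**Figure D4:**
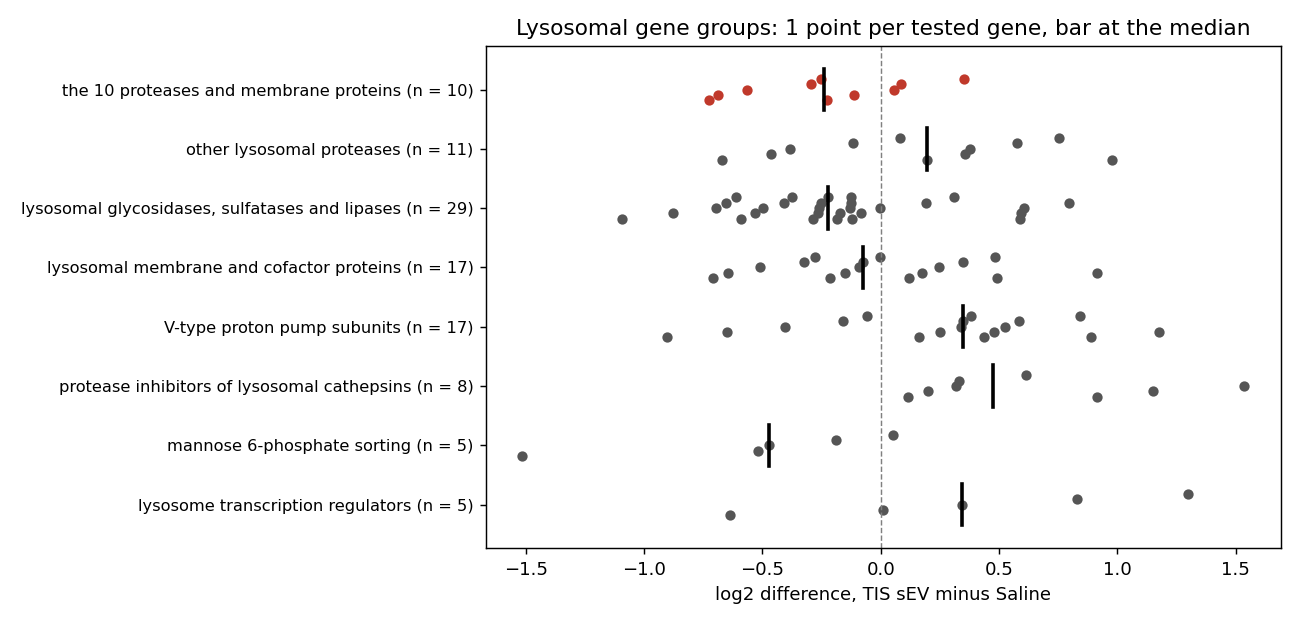
Fitted log2 differences, TIS sEV minus Saline, on log2(scaled TPM + 1), with 1 point per tested gene and a vertical bar at the median of each list. All 8 protease inhibitors lie above 0, the median of the proton pump is 0.35 and that of the 10 proteases and membrane proteins is -0.24.

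Cell type markers moved between libraries as well, and their part in these values was not tested. All 14 macrophage and monocyte markers were above 0 in every library, with summed levels of 516, 2025 and 1736 scaled TPM with TIS sEV, 1332 with Cont sEV and 650, 1380 and 899 with Saline. The 10 neutrophil markers, also above 0 in every library, summed to 1411, 2612 and 1677 with TIS sEV, 519 with Cont sEV and 5952, 1312 and 808 with Saline. The 8 epithelial markers summed to 1456, 1453 and 2437 with TIS sEV, 2751 with Cont sEV and 1439, 2498 and 2921 with Saline, and 7 of 8 had a difference below 0 between TIS sEV and Saline. For each of these 3 lists the TIS sEV and Saline ranges overlapped. The 6 B and plasma cell markers summed to 23.1, 396 and 77.3 with TIS sEV, 39.3 with Cont sEV and 3.55, 7.09 and 1.61 with Saline, and the 9 T and NK cell markers to 39.5, 32.5 and 78.4 with TIS sEV, 26.3 with Cont sEV and 22.4, 21.8 and 25.9 with Saline. In both lists every TIS sEV library lay above every Saline library, although 2 markers of each list were at 0 in TIS sEV replicate 2. In deposited TPM this held for the B and plasma cell markers, while the T and NK cell markers summed to 12.1 TPM in TIS sEV replicate 2, below the 23.0 to 38.4 TPM of the Saline libraries. Only 3 of the 6 B and plasma cell markers and 6 of the 9 T and NK cell markers reached the level needed for testing. Among single genes tested, 10.4% had every TIS sEV library above every Saline library, and no such share was made for sums.

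The genes whose profile across the 7 libraries was most like the mean of the 10 genes were Loxl3 (Pearson r = 0.992), Slc35b2 (0.991), Pigt (0.991), Ephb4 (0.984) and Psap (0.983), out of 3264 protein-coding genes with at least 20 TPM on average. The libraries share the composition differences described above, and r was 0.875 to 0.945 for these genes without TIS sEV replicate 2. Psap encodes the precursor of the saposins, cofactors of lysosomal lipid hydrolases. The 10 genes did not all follow their mean. On log2(scaled TPM + 1) the mean was 6.25 in TIS sEV replicate 2 and 6.83 to 7.14 in the other libraries. The r of a gene with the mean of the others ran from 0.17 for Lgmn to 0.91 for Lamp1. Without TIS sEV replicate 2 it ran from -0.59 for Lamp2 to 0.76 for Ctsc.

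Gene-level TPM can be affected by neighbours. Ctsb and Ctsz have exons that overlap those of Fdft1 (6.50 to 63.9 TPM) and Nelfcd (5.28 to 24.0 TPM) on the opposite strand, and whether strand was used is not given in the sources used here. Exons of Ctsd and Glb1 overlap Gm49369 and Tmppe on the same strand, which reached at most 1.44 and 1.29 TPM.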

How the data were processed

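The authors deposited 1 table of TPM values per gene for 7 libraries. Salmon 1.4.0, Trim Galore 0.6.6, DESeq2 1.28.0 and FastQC 0.11.9 are listed for build GRCm38.p6, per the submitters' processing notes. Neither the annotation nor the strand setting is given there. Each TPM column sums to 1000000 and keeps no depth, so depth is unknown. Columns named CE and NcE were read as Cont sEV and TIS sEV, since the labels derive TIS vesicles from nocodazole-treated cells; every vesicle comparison rests on this. Symbols and coordinates came from GENCODE M21.

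Size factors were the median of ratios over 14868 genes above 0 in every library. limma 3.58.1 (R 4.3.3) was fitted to log2(scaled TPM + 1), which understates changes of low genes, for the 12058 genes that reached 1 TPM in 3 or more libraries, with 1 mean per group, an intensity trend, 4 residual degrees of freedom, two-sided tests and Benjamini-Hochberg adjustment over all genes (threshold 0.05). The script was tested on simulated data. All 10 genes were named in each comparison. Of each other lysosomal list, the 2 tested members with the largest difference and at least 5 TPM were named. Members and lists were chosen with earlier results of these data known, and the ratios shown were singled out after their values were seen. Alternatives changed the scaling, pseudocount, filter, trend, replicate block and libraries.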

Additional observations from a re-analysis of the deposited data

How the results depend on the processing

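None of the 30 differences (10 genes in 3 comparisons) passed in any of the 460 values recomputed under alternatives. Leaving out the Cont sEV library gave no value for the 20 that involve it. Of the 30, 14 kept their sign throughout, among them those of Lamp2, Lamp1, Ctsb, Ctsl and Ctsc between TIS sEV and Saline. The other 16 changed sign at least once, and the cause was not tested. In deposited TPM without size factors, TIS sEV minus Saline was -0.67 for Ctsd, -0.69 for Ctsz and -0.40 for Lgmn, TIS sEV minus Cont sEV was -0.13 for Ctsb and -0.28 for Lamp2, and Cont sEV minus Saline was -0.22 for Ctsd, -0.19 for Ctsz, -0.35 for Ctsc and -0.31 for Ctsh. Scaled to the total of nuclear protein-coding genes, TIS sEV minus Saline was -0.20 for Ctsd and -0.23 for Ctsz, TIS sEV minus Cont sEV was 0.13 for Ctsd, 0.0038 for Ctsl, 0.079 for Ctsz, 0.031 for Ctsh and 0.045 for Lamp1, and Cont sEV minus Saline was -0.34 for Ctsd, -0.31 for Ctsz, -0.47 for Ctsc and -0.43 for Ctsh. With quantile normalization, TIS sEV minus Saline was -0.29 for Ctsd, -0.28 for Ctsz and -0.0030 for Lgmn, TIS sEV minus Cont sEV was 0.024 for Ctsd and 0.010 for Ctsz, and Cont sEV minus Saline was -0.32 for Ctsd, -0.29 for Ctsz, -0.17 for Ctsc and -0.36 for Ctsh. With 1 library left out, TIS sEV minus Saline ran from -0.23 to 0.017 for Ctsh, from -0.69 to 0.40 for Glb1, from -0.11 to 0.28 for Ctsd and from -0.20 to 0.32 for Ctsz, TIS sEV minus Cont sEV from -0.15 to 0.29 for Lamp2, from -0.29 to 0.088 for Ctsd, from -0.61 to 0.33 for Ctsl and from -0.41 to 0.11 for Ctsz, and Cont sEV minus Saline from -0.21 to 0.18 for Ctsc. Differences that kept their sign there also moved by over 1.5 times: TIS sEV minus Cont sEV was -0.37 for Ctsc and -0.056 for Lamp1 without TIS sEV replicate 2 and -0.070 for Ctsh without TIS sEV replicate 1, and Cont sEV minus Saline was -0.27 for Ctsl without Saline replicate 2, -0.055 for Lamp1 without Saline replicate 3, and 0.10 for Ctsd, 0.13 for Ctsz and 0.035 for Ctsh without Saline replicate 1.

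Deviations of TIS sEV and Saline libraries with the same replicate number correlated at -0.35, -0.0095 and 0.072. Those with different numbers correlated at -0.29 to 0.32, so these values do not show whether the numbers pair the libraries. With the replicate block, Ctsl between TIS sEV and Cont sEV turned to 0.043, and 0 genes were called between TIS sEV and Cont sEV and 0 between Cont sEV and Saline, in place of 1 each. Genes called between TIS sEV and Saline numbered 0, and 0 to 4 with 1 library left out, with 4 without TIS sEV replicate 1. In deposited TPM they numbered 62 (42 higher and 20 lower, 0.514%), where the median gene lay at -0.62. In that fit limma used only a spread shared by genes of like level, with infinite prior degrees of freedom, against 3.03 in the main fit. Its counts in every comparison therefore come from a test that behaves differently. Between TIS sEV and Cont sEV the counts were 27 in deposited TPM, 2 scaled to the protein-coding total, 3 with a pseudocount of 5, 280 with no filter on low values and 1 to 2 with 1 library left out. Between Cont sEV and Saline they were 25, 2, 3 and 310 under the same 4 settings, 2 with quantile normalization and 0 to 1 with 1 library left out. The medians of the lysosomal lists between TIS sEV and Saline, relative to all genes, kept their sign under the 3 other scalings, which, like the lists without TIS sEV replicate 2, were chosen after seeing the data. Their sizes moved. With quantile normalization the median itself, not taken relative to all genes, was 0.081 for the proton pump. It was -0.15 for the membrane and cofactor genes and -0.034 over all genes. The number of libraries limits the precision.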
